A study of Mus musculus with 4 samples.

Results

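*Dbp*, *Tef*, *Hlf* and *Nfil3* encode basic leucine zipper transcription factors that read out the circadian clock in the liver. They were examined in liver RNA-seq of WT and *Usp21* KO mice, with 2 libraries of each genotype (WT replicates 2 and 3, KO replicates 1 and 3). The members were selected on their symbols among the 35739 genes of a table of TPM (a transcript level scaled to transcript length and to the total of the library), and they are 4 of those genes. They were also chosen with their levels in these libraries known, so the differences between genotypes in these 4 genes are a description and carry no test. Per the study's methods, the mice were 10–11 week old littermates on a normal diet, with 12 h of light and 12 h of dark a day. The KO mice carried a constitutive allele from which Cre had removed exons 3 and 4 of *Usp21*. Their background was a mix of B6 and the strain of the ES cells in which the allele was made. The study's name for that strain ends in Sv. The WT littermates came from the same crosses. No group was treated. The hour at which each liver was taken is not given in the sources used here.

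DBP, TEF and HLF form the PAR bZIP family, named for a region rich in proline and acidic amino acids beside the basic leucine zipper. They activate genes that carry a D-box, while NFIL3, also known as E4BP4, lacks the PAR region, binds the same element and represses. In the liver the clock activators CLOCK and BMAL1 drive *Dbp* through E-boxes, and the REV-ERB and ROR receptors act on *Nfil3* and on *Arntl*, which encodes BMAL1, through ROR elements. The RNA of these genes therefore cycles over the day, with *Nfil3* peaking at a time when the PAR bZIP genes are low, and the D-box genes of the liver include many that handle drugs, bile acids and heme.

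In the mouse genome (build GRCm38), *Dbp* (ENSMUSG00000059824) lies on the plus strand at chr7:45705088-45710203 and *Tef* (ENSMUSG00000022389) on the plus strand at chr15:81802421-81826863. *Hlf* (ENSMUSG00000003949) lies on the minus strand at chr11:90336536-90390895 and *Nfil3* (ENSMUSG00000056749) on the minus strand at chr13:52967209-52981073. No stretch of 31 bases was shared between the annotated transcripts of any of the 4 genes, so reads of that length would not be split among them.

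The promoter windows of all 4 members were found in the RefSeq sequences of GRCm38.p6 (250 bases before to 50 bases after a gene's start), and of the 40 members and listed genes 34 matched. The windows were searched on both strands for the E-box CACGTG, the ROR half-site AGGTCA, the D-box TTATGTAA or TTACGTAA, and a D-box variant, TTATGCAA or TTACGCAA. Among 32851 promoters of the same length, 7.15% held the E-box, 16.26% the ROR half-site, 1.06% the D-box and 0.91% the variant. Both start sites of *Tef* held an E-box, and the window of *Nfil3* held a ROR half-site. None of these letters occurred in the windows of *Dbp* and *Hlf*, which says nothing of sites elsewhere in these genes. The stretches of the members are given on the gene's strand from 5′ to 3′, with the motif in capitals. The first *Tef* stretch is chr15:81802535-81802562 (plus strand), in annotated exons of *Tef* and of the antisense gene *Gm17597*. The second is chr15:81811265-81811292 (plus strand), at a start site within *Tef* and outside any exon. The *Nfil3* stretch is chr13:52981035-52981062 (minus strand), in the first exon of *Nfil3*, and its capitals are the half-site read on the other strand.
Tef upstream start: tgctgtggctcCACGTGctgcagctggc
Tef internal start: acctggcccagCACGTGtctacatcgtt
Nfil3: gcgctcggaacTGACCTactaacacaca

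*Dbp* was the PAR bZIP gene with the largest difference. It stood at 56.8 TPM in WT replicate 2 and 41.3 TPM in WT replicate 3, and at 4.73 and 4.97 TPM in KO replicates 1 and 3. Both KO libraries lay far below both WT libraries, while the libraries of one genotype lay closer to each other. The mean level was 49.0 ± 10.99 (WT) and 4.85 ± 0.170 TPM (KO; SD, n = 2 each), a ratio of WT to KO of 10.1, and over the 4 pairs of a WT and a KO library the ratio ranged from 8.30 to 12.0. On the log2(TPM + 1) scale, which understates the change of low genes, the difference was -3.08 (limma SE 0.23). Of the 9422 tested genes above 0 in every library, *Dbp* had the lowest log2 fold change, and of all 9581 tested genes, which include genes listed at 0 in a library, the 6th lowest.

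*Tef*, whose protein binds the same D-box as DBP, was listed at 17.0 and 21.3 TPM (WT replicates 2 and 3) against 8.234 and 8.997 TPM (KO replicates 1 and 3). The KO libraries were again the lower ones, without overlap, but by a smaller factor than for *Dbp*. The means were 19.2 ± 3.01 (WT) and 8.62 ± 0.540 TPM (KO; SD, n = 2 each), a ratio of WT to KO of 2.23 that ranged from 1.89 to 2.59 over the pairs, and the log2 difference was -1.06 (SE 0.21). *Hlf* was the PAR bZIP gene with the lowest level in both WT libraries. Its values were 7.43 and 7.02 TPM (WT replicates 2 and 3) against 4.32 and 4.37 TPM (KO replicates 1 and 3). The groups did not overlap, and within each genotype the libraries differed little. The means were 7.22 ± 0.293 (WT) and 4.34 ± 0.0342 TPM (KO; SD, n = 2 each), a ratio of WT to KO of 1.66, and the log2 difference was -0.62 (SE 0.22). Among the same 9422 genes, *Tef* had the 52nd and *Hlf* the 246th lowest log2 fold change, and among all 9581 the 89th and the 298th.

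*Nfil3*, the repressor, went the other way. It stood at 3.86 TPM in WT replicate 2, 8.13 TPM in WT replicate 3, 17.0 TPM in KO replicate 1 and 24.5 TPM in KO replicate 3. The KO libraries were the upper pair, but the WT libraries themselves differed by a factor of 2.11. On the log2(TPM + 1) scale the gap between the WT libraries was 0.91, compared with 0.98 for the smallest gap between a WT and a KO library. The means were 5.99 ± 3.02 (WT) and 20.8 ± 5.28 TPM (KO; SD, n = 2 each), a ratio of KO to WT of 3.46 that ranged from 2.09 to 6.34 over the pairs, and the log2 difference was 1.69 (SE 0.36). It was the 23rd highest among the 9422 genes and the 49th among all 9581.

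**Figure D1:**
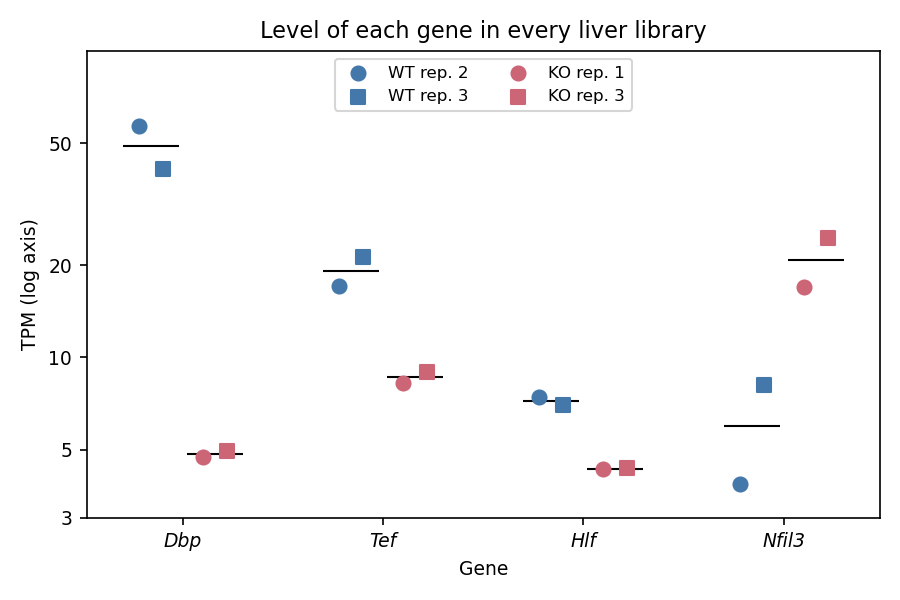
Level of *Dbp*, *Tef*, *Hlf* and *Nfil3* in TPM on a log axis, with 1 point per liver library (WT in blue, *Usp21* KO in red) and the mean of each genotype as a line. The KO libraries lie below the WT libraries for the PAR bZIP genes and above them for *Nfil3*, and the distance is widest for *Dbp* (WT 41.3 and 56.8 TPM, KO 4.73 and 4.97 TPM).

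Both KO libraries were thus below both WT libraries in 3 of 3 PAR bZIP genes, where 10.9% of the 9581 tested genes (mean TPM of 1 or more) showed this order, and *Nfil3* showed the opposite order, as did 34.4% of those genes. The members were chosen with these values known, so nothing is read from these counts. In bulk tissue, fewer cells that express a gene and less RNA of it per cell cannot be told apart.

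The order of the members by TPM differed between genotypes. In both WT libraries *Dbp* was first and *Tef* second, with *Nfil3* last in replicate 2 and just ahead of *Hlf* in replicate 3, where 8.13 and 7.02 TPM differ by less than the gap between the WT libraries in *Nfil3*. In both KO libraries *Nfil3* was first, followed by *Tef*, *Dbp* and *Hlf*, the last pair being neighbours at 4.73 and 4.32 TPM in replicate 1 and at 4.97 and 4.37 TPM in replicate 3. *Dbp* was 3.33 and 1.94 times as high as *Tef* in WT replicates 2 and 3, and 0.574 and 0.552 times as high in KO replicates 1 and 3. The ratio of *Tef* to *Hlf* was 2.29 and 3.04 in the WT libraries and 1.91 and 2.06 in the KO libraries, closer between genotypes than the ratio of *Dbp* to *Tef*.

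Summed over *Dbp*, *Tef* and *Hlf*, the activators reached 81.3 and 69.6 TPM (WT replicates 2 and 3) against 17.3 and 18.3 TPM (KO replicates 1 and 3). *Dbp* made up 69.9% and 59.3% of this sum in the WT libraries and 27.4% and 27.1% in the KO libraries. In KO, *Tef* held the largest share, with 47.7% and 49.1%. The summed activators were 21.05 and 8.559 times the level of *Nfil3* in WT replicates 2 and 3, and 1.02 and 0.749 times its level in KO replicates 1 and 3. WT replicate 2 was the highest library, and in KO the activator and repressor RNAs were at similar levels. As a mean of log2 ratios, this balance was 3.75 ± 0.92 in WT and -0.20 ± 0.31 in KO (SD, n = 2 each), a difference of -3.94. A ratio within a library does not depend on how the library was scaled. These ratios are of RNA levels, and protein was not measured.

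**Figure D2:**
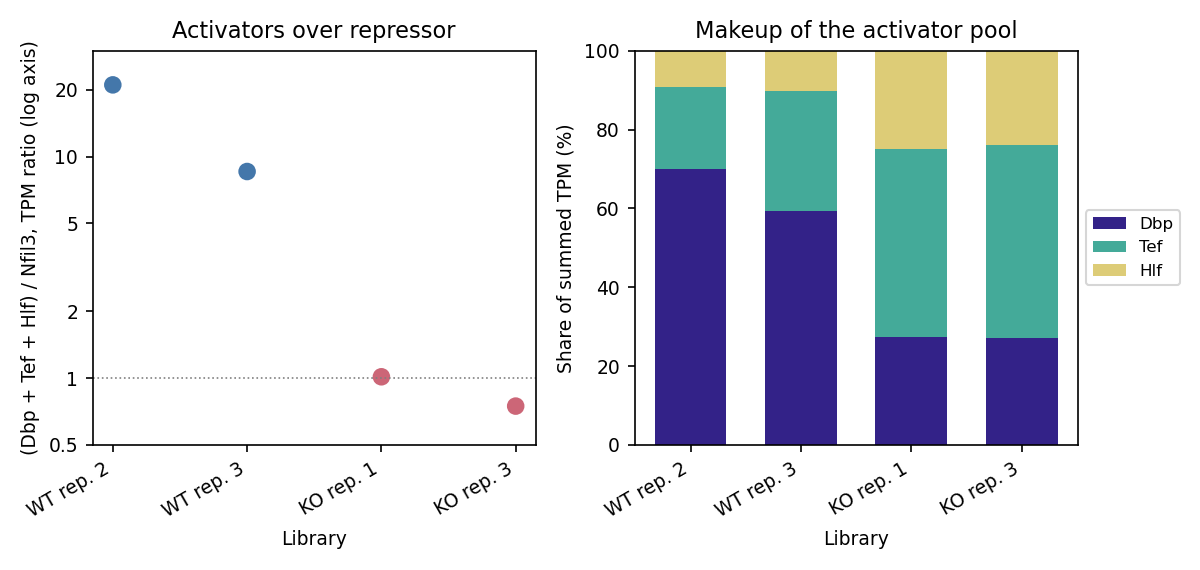
Left, the summed TPM of *Dbp*, *Tef* and *Hlf* divided by the TPM of *Nfil3* in each library (log axis, dotted line at a ratio of 1, WT in blue and KO in red). Right, the share of the summed TPM held by each of the 3 genes, in percent; the *Dbp* share was 69.9% and 59.3% in the WT libraries and 27.4% and 27.1% in the KO libraries.

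*Dbp* shares DNA with another gene, and the deposited tables differ on it. *Sphk2*, which encodes a sphingosine kinase, runs on the minus strand at chr7:45709467-45718002 and overlaps the 3′ end of *Dbp* by 737 bp, of which 539 bp are exonic in both genes. Of the 31-base stretches of *Dbp* transcripts, 16.93% also occurred in *Sphk2* transcripts when both strands were considered, compared with 2.14% for *Tef* (in *Gm17597*, *2900060N12Rik* and *Gm38259*) and 0% for *Hlf* and *Nfil3*. In the TPM table *Sphk2* stood at 10.1 and 10.2 TPM (WT replicates 2 and 3) against 15.5 and 10.5 TPM (KO replicates 1 and 3), with a log2 difference of 0.30 (SE 0.25, adjusted p = 0.658 in limma, and 0.04 without KO replicate 1). In TPM it thus showed no excess in WT where *Dbp* was high.

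A second table gives CPM (read counts scaled to library size by the authors), from which whole reads could be recovered. Here *Dbp* had only 2 and 1 reads in WT replicates 2 and 3 and 7 and 3 reads in KO replicates 1 and 3, a log2 difference of 1.52 in the direction opposite to that in TPM. *Sphk2* had 152 and 83 reads in the WT libraries and 14 and 12 reads in the KO libraries. Its mean CPM was 9.44 times as high in WT as in KO. Its log2 difference there was -3.24 in edgeR, opposite to the TPM (adjusted p = 3.19e-13 in edgeR, 5.96e-06 in DESeq2 and 0.000671 in limma on the CPM). It had the lowest p of the 5146 genes in each of these fits, with the same 2 libraries per genotype. *Sphk2* was examined because it overlaps *Dbp*, a member chosen with its values known. Whether these reads came from *Sphk2* or from *Dbp* was not tested, so nothing is read from these p-values. *Tef*, *Hlf* and *Nfil3* were listed at 0 in all 4 libraries. A zero in this table sets no limit on the level of a gene, since 428 of 682 abundant genes (100 TPM or more throughout) were also listed at 0 in all of them, among them *Serpina1a*, a hepatocyte gene at 4225 to 5222 TPM. For counting error alone, 0 reads leave room for as many as 3 (20.04 to 27.67 CPM depending on the library), and the *Dbp* counts lie near that number. Of the 1084 genes with at least 20 recovered reads in all, 94.4% had an exon that overlaps an exon of a gene on the other strand, compared with 16.5% of the annotated genes of this table. How the library kit and the counting treated strand is not given in the sources used here, and the part of strand in these values was not tested. The levels of the members therefore rest on the TPM table, for which the depth is unknown.

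**Figure D3:**
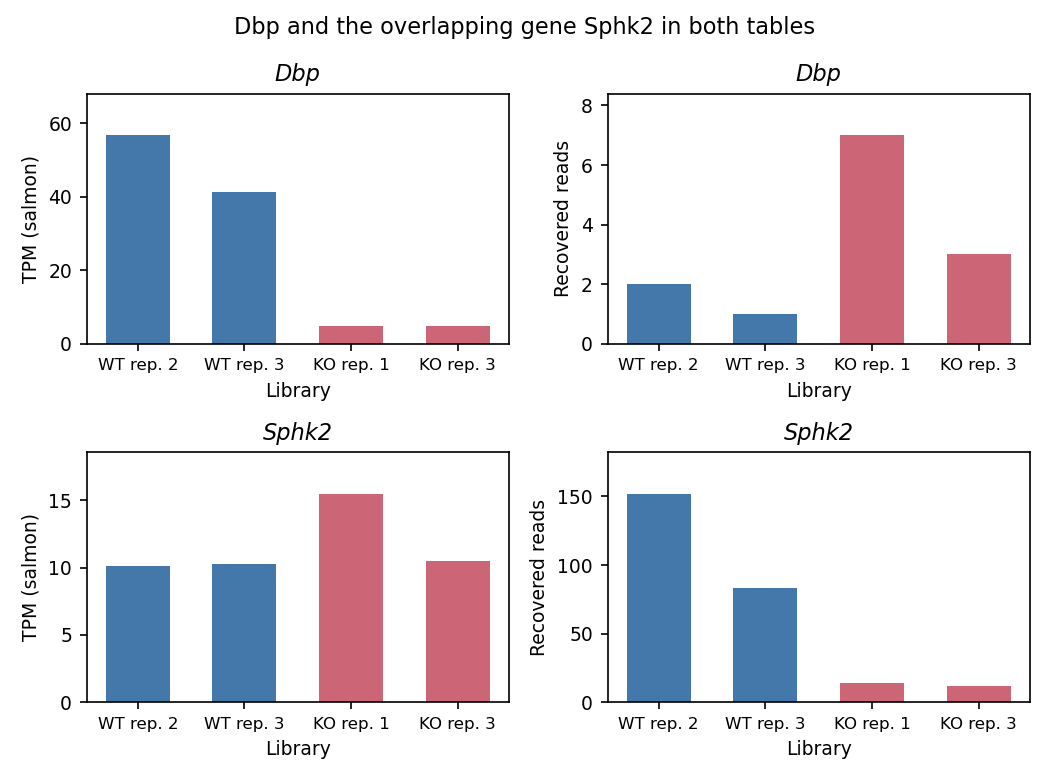
*Dbp* (top) and the overlapping gene *Sphk2* on the other strand (bottom) in each library, as TPM (left) and as reads recovered from the CPM table (right), with WT in blue and KO in red. In TPM *Dbp* is high in WT (56.8 and 41.3) and *Sphk2* is not, while in recovered reads *Sphk2* is high in WT (152 and 83) and *Dbp* has at most 7 reads.

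To place the members in the clock circuit, 7 lists of genes around them were described with limma, which tested 28 of their 36 genes. Of these 28, 13 were higher and 15 lower in KO, and the median log2 difference was -0.0664, compared with 0.15 over all 9581 tested genes, of which 66.7% were higher and 33.3% lower. An unadjusted p under 0.05 was reached by 4 genes in the higher and 6 in the lower direction. Over all tested genes, 8.45% were higher and 2.04% lower at that threshold. None of the 28 had a Benjamini-Hochberg adjusted p under 0.05 in limma, nor did any of the 10 listed genes that the CPM table gives reads for, in edgeR or DESeq2, where 1 and 0 of them had an unadjusted p under 0.05. Some of these 10 had almost no reads, so a missing call there says little. *Cry1* and *Cyp3a11*, for example, had 1 read in KO replicate 1 and 0 in the other libraries. Over all tested genes 0.0835% passed the adjusted threshold. The values below therefore describe only these 4 libraries. The limma p-values set the difference between genotypes against the spread within them, which was moderated with that of the other tested genes.

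Upstream of the members, the E-box activators were higher in KO in 2 of the 2 genes tested, where 66.7% of all tested genes were higher (median log2 difference 1.75), and both had an unadjusted p under 0.05. *Arntl*, which encodes BMAL1, stood at 0.241 and 0.243 TPM (WT replicates 2 and 3) against 5.89 and 4.05 TPM (KO replicates 1 and 3). Its log2 difference was 2.25 (SE 0.28, adjusted p = 0.154), and the WT values lie near 0, so the fold is poorly set. *Clock* had 1.23 and 1.02 TPM (WT) against 5.07 and 3.24 TPM (KO), with a log2 difference of 1.26 (SE 0.29, adjusted p = 0.45). Both genes lay in the direction of *Nfil3* and opposite to *Dbp*.

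The E-box clock repressors, which CLOCK and BMAL1 activate and which act back on them, had 4 of 5 tested genes lower in KO and 1 higher, with a median log2 difference of -0.841. The 4 lower ones had an unadjusted p under 0.05, but only 2 did when any 1 library was left out. *Ciart*, which encodes the repressor CHRONO, stood at 5.70 and 5.61 TPM (WT replicates 2 and 3) against 0.301 and 0.194 TPM (KO replicates 1 and 3), with a log2 difference of -2.42 (SE 0.25, adjusted p = 0.089). *Per1*, a period gene, had 3.84 and 4.07 TPM (WT) against 1.90 and 1.59 TPM (KO) (log2 difference -0.86, SE 0.24, adjusted p = 0.464). The pattern of *Ciart* was the nearest in size to that of *Dbp* among these repressors. *Cry2*, a cryptochrome, had a log2 difference of -0.84 (SE 0.27, adjusted p = 0.464), with 7.76 and 5.09 TPM (WT) against 2.91 and 3.26 TPM (KO). *Bhlhe40*, which encodes the E-box binding repressor DEC1, had 28.0 and 49.3 TPM (WT) against 20.8 and 22.6 TPM (KO) (log2 difference -0.75, SE 0.29, adjusted p = 0.472), and leaving out WT replicate 3 gave -0.35 and WT replicate 2 -1.15.

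The regulators of ROR elements, through which *Nfil3* is controlled, showed no common direction. Of 4 tested genes 2 were higher and 2 lower in KO, 0 had an unadjusted p under 0.05, and the median log2 difference was 0.109, which became 0.0598 without WT replicate 2, -0.236 without WT replicate 3 and -0.0171 with upper quartile scaling. *Rora*, an activating receptor, had 4.50 and 7.21 TPM (WT replicates 2 and 3) against 11.7 and 7.99 TPM (KO replicates 1 and 3) (log2 difference 0.67, SE 0.31, adjusted p = 0.494), and leaving out KO replicate 1 gave 0.42 and WT replicate 2 0.38. The values of KO replicate 3 and WT replicate 3 were close. *Nr1d1*, which encodes the repressor REV-ERBα, had 33.9 and 9.92 TPM (WT) against 25.1 and 26.9 TPM (KO), so the KO values lay between those of the WT libraries. It was named after its values were seen.

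Since the RNA of the clock genes and of their outputs cycles over the day, the hour of collection could bear on the values above. It is not given in the sources used here, and its part in the differences between the WT and KO libraries was not tested.

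Downstream of the members, the D-box stretches are shown for listed genes whose windows held the motif, since these are the letters that PAR bZIP factors and NFIL3 bind. All are in RefSeq windows of GRCm38.p6 on the gene's strand, with the D-box or its variant in capitals. *Alb*, the albumin gene from which DBP takes its name, held the D-box on each strand, at chr5:90460636-90460665 and chr5:90460655-90460684 (plus strand). *Per3* held it at chr4:151044852-151044881 and chr4:151044805-151044834 (minus strand), and *G6pc* at chr11:101367543-101367572 (plus strand, overlapping the start of an annotated exon of *G6pc*). The variant occurred in *Cyp2a5* at chr7:26835257-26835286, in *Cyp2b10* at chr7:25897589-25897618 and in *Per1* at chr11:69098914-69098943 (all plus strand). The *Cyp2a5* stretch was found with the same 30 bases in *Cyp2a4*, a closely related gene, at chr7:26307111-26307140, and reads of these paralogs can be hard to separate.
Alb first: agattaagctcTTATGTAAaatttgctgtt
Alb second: aatttgctgttTTACATAActttaatgaat
Per3 first: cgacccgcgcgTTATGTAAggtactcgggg
Per3 second: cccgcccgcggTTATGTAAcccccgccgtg
G6pc: gttttgctattTTACGTAAatcaccctgaa
Cyp2a5: aggtgaaatagTTGCATAAtcaagaccaaa
Cyp2b10: aacagctgaagTTGCATAActgagtggaga
Per1: agggcctggcaTTATGCAAcccgcctccca

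The genes with these letters did not share a direction. Among liver genes listed as PAR bZIP targets, 6 of 9 tested were lower and 3 higher in KO, and the median log2 difference was -0.391 (leaving out KO replicate 1 gave -0.593, KO replicate 3 -0.207 and WT replicate 2 -0.134), and 2 lower genes had an unadjusted p under 0.05 (4 genes when KO replicate 1 was left out). *Cyp2a5*, a cytochrome P450 that oxidises coumarin, stood at 495 and 616 TPM (WT replicates 2 and 3) against 222 and 177 TPM (KO replicates 1 and 3). Its log2 difference was -1.47 (SE 0.21, adjusted p = 0.188). *Por*, which encodes the reductase that passes electrons to microsomal P450 enzymes, had 175 and 168 TPM (WT) against 81.8 and 81.4 TPM (KO). Its log2 difference was -1.06 (SE 0.16, adjusted p = 0.203), and the libraries of each genotype were nearly equal.

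The other listed targets had smaller differences or overlapping groups. *Alb*, whose window holds a pair of D-boxes, had 43181 and 32024 TPM (WT replicates 2 and 3) against 31006 and 27475 TPM (KO replicates 1 and 3) (log2 difference -0.35, SE 0.32, adjusted p = 0.693). *Cyp2b10*, with the variant, had 2.20 and 1.46 TPM (WT) against 4.44 and 2.41 TPM (KO) (log2 difference 0.62, SE 0.33, adjusted p = 0.524). WT replicate 2 and KO replicate 3 of *Cyp2b10* were close. *Alas1*, the first enzyme of heme synthesis, was listed at 333 and 201 TPM (WT) against 217 and 166 TPM (KO), and its groups overlapped. *Cyp7a1*, the rate-limiting enzyme of bile acid synthesis, had 11.2 and 14.3 TPM (WT) against 19.5 and 4.31 TPM (KO), with the highest and the lowest value both in KO libraries. *Alb*, *Cyp2b10*, *Alas1* and *Cyp7a1* were named after their values were seen.

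Of the clock genes that carry D-boxes, 3 of 5 tested were higher and 2 lower in KO, and the median log2 difference was 0.377, which became 0.0121 without KO replicate 1, -0.24 without WT replicate 3 and -0.163 when low genes were kept. *Per1*, given above, was the 1 gene of this list with an unadjusted p under 0.05, and without WT replicate 3 there was 0. *Per3*, with its pair of D-boxes, was under the filter of a mean of 1 TPM, at 0.393 and 2.21 TPM (WT) against 0.113 and 0.530 TPM (KO), and its groups overlapped. It too was named after its values were seen.

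Of the 4 genes listed as repressed by NFIL3, 2 were tested and both were higher in KO, the direction of 66.7% of all tested genes, with a median log2 difference of 1.15 (0.612 without KO replicate 3), and 1 had an unadjusted p under 0.05 (0 without WT replicate 2 and 2 without KO replicate 1). *G6pc*, the last enzyme of glucose release, had 22.4 and 31.6 TPM (WT replicates 2 and 3) against 56.4 and 173 TPM (KO replicates 1 and 3). Its log2 difference was 1.85 (SE 0.52, adjusted p = 0.464), and 1.06 without KO replicate 3, the library with by far the highest value. *Pck1*, which encodes the gluconeogenic PEP carboxykinase, had 476 and 560 TPM (WT) against 581 and 853 TPM (KO) (log2 difference 0.45, SE 0.24, adjusted p = 0.527), and leaving out KO replicate 3 gave 0.17 and KO replicate 1 0.72.

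The C/EBP factors are related basic leucine zipper proteins, and some of them bind D-box-like sites. Of 6 tested genes 3 were higher and 3 lower in KO, and the median log2 difference was 0.0893 (-0.0271 with upper quartile scaling, and 0.181 to 0.328 with any 1 library left out), and 1 had an unadjusted p under 0.05, against 0 when either KO library was left out and 2 without WT replicate 3. *Cebpg*, a C/EBP partner without a classical activation domain, had 8.15 and 9.47 TPM (WT replicates 2 and 3) against 14.04 and 12.72 TPM (KO replicates 1 and 3) (log2 difference 0.55, SE 0.20, adjusted p = 0.465). *Ddit3*, which encodes the stress-induced factor CHOP, had 2.51 and 5.22 TPM (WT) against 8.95 and 5.55 TPM (KO) (log2 difference 0.79, SE 0.37, adjusted p = 0.498), and leaving out WT replicate 2 gave 0.38, WT replicate 3 1.199 and KO replicate 1 0.49. WT replicate 3 and KO replicate 3 of *Ddit3* were close, as they were for *Rora*.

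**Figure D4:**
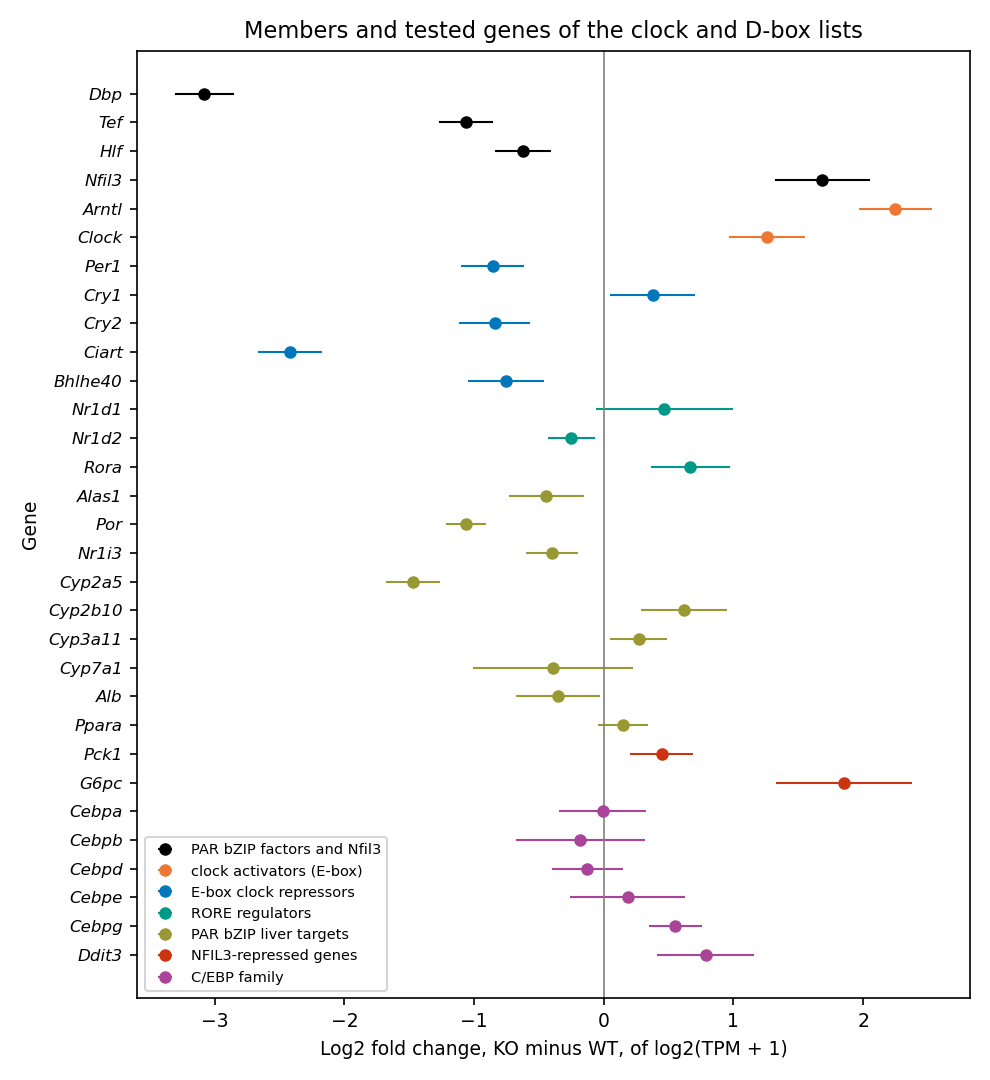
Log2 fold change (KO minus WT, of log2(TPM + 1)) of the 4 members and of 27 of the 28 tested genes of the 7 lists, coloured by the first list that holds the gene, with bars of 1 standard error from limma. *Dbp* (-3.08) and *Ciart* (-2.42) lie farthest to the left and *Arntl* (2.25) and *G6pc* (1.85) farthest to the right.

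The genes whose profile was most like that of each member were found over the 4 libraries, as the smallest root mean square difference between mean-centred log2(TPM + 1) values among 5822 genes whose mean TPM was 5 or more. With 4 libraries such likeness is a description, and genes found in this way share the member's difference between genotypes by construction. For *Dbp* these were *Lbhd1*, *Usp2*, *Rgs16*, *Gm38317* and *Dusp23*, at 0.453 to 0.672. *Usp2*, a deubiquitinase known to cycle in the liver, had 11.5 and 12.7 TPM (WT replicates 2 and 3) against 1.81 and 2.37 TPM (KO replicates 1 and 3). *Rgs16*, a regulator of G protein signalling, had 19.99 and 13.52 TPM (WT) against 1.40 and 4.34 TPM (KO). *Gm38317* is a processed pseudogene that was listed at 0 in both KO libraries, and its values are uncertain because reads of a parent gene can be assigned to it.

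For *Tef* the nearest genes were *Fbxo36*, *Dnph1*, *Slc50a1*, *Mvk* and *Fbxw9*, at 0.0619 to 0.13. *Fbxo36*, which encodes an F-box protein, had 8.22 and 11.2 TPM (WT replicates 2 and 3) against 4.32 and 4.42 TPM (KO replicates 1 and 3). *Mvk*, mevalonate kinase of the cholesterol pathway, had 9.96 and 11.4 TPM (WT) against 3.47 and 4.86 TPM (KO). For *Hlf* they were *Ciapin1*, *Ces1g*, *Gpihbp1*, *Sys1* and *Yif1a*, at 0.0324 to 0.0473. *Ces1g*, a carboxylesterase, had 56.3 and 52.6 TPM (WT) against 34.4 and 37.2 TPM (KO). Among the members, *Tef* was 19th and *Hlf* 95th in likeness to *Dbp* (differences of 1.04 and 1.24), and *Hlf* was 50th in likeness to *Tef* (0.26). These ranks depend on the gene from which they are counted. *Dbp* was only 5571st in likeness to *Tef* and 5738th in likeness to *Hlf* among the 5822 genes, and *Tef* was 689th in likeness to *Hlf*.

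For *Nfil3* the nearest genes were *Hsph1*, *Hspa8*, *Lpin1*, *Chordc1* and *Crem*, at 0.0384 to 0.253. *Hsph1* and *Hspa8* encode chaperones of the HSP110 and HSC70 kind, and *Chordc1* a co-chaperone of HSP90. *Hsph1* had 7.28 and 13.9 TPM (WT replicates 2 and 3) against 30.2 and 40.6 TPM (KO replicates 1 and 3). *Lpin1*, the phosphatidate phosphatase lipin 1, had 10.3 and 23.1 TPM (WT) against 52.5 and 54.8 TPM (KO). In each of these genes, as in *Nfil3*, WT replicate 2 was the lowest library and WT replicate 3 stood between it and the KO libraries. The genes were picked for their likeness to *Nfil3*, so nothing is read from this shared order.

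The targeted gene, *Usp21*, had 4.07 and 6.29 TPM (WT replicates 2 and 3) against 1.64 and 2.93 TPM (KO replicates 1 and 3), with a log2 difference of -0.92 (SE 0.33, adjusted p = 0.464 in limma). The KO libraries were lower, and TPM counts the whole transcript, of which 2 exons were removed. The tissue had the character of liver in every library, as all 8 hepatocyte markers were above 0 and their summed level was 57598 to 76409 TPM. Summed markers of Kupffer cells (54.9 to 143 TPM, 7 of 7 above 0 everywhere) and endothelial cells (43.3 to 67.0 TPM, 6 of 6) overlapped between genotypes, as did those of lymphocytes (1.32 to 2.60 TPM, 3 of 5). The summed markers of cholangiocytes and of stellate cells were higher in both KO libraries than in both WT libraries. Of all tested genes, 34.4% showed this order, and most of the single markers did not. The summed cholangiocyte markers were 14.6 and 15.9 TPM (WT replicates 2 and 3) against 37.9 and 24.5 TPM (KO replicates 1 and 3), mostly through *Spp1*, with 4 of 5 above 0 everywhere and *Krt7* at 0 in 1 library. *Krt19* was also higher in KO, at low levels, while *Epcam*, *Sox9* and *Krt7* overlapped between genotypes. The stellate cell markers summed to 53.9 and 41.8 TPM in the WT libraries against 78.1 and 60.4 TPM in the KO libraries, with 6 of 6 above 0 everywhere. *Dcn* held most of this sum, at 42.6 and 34.1 TPM (WT) against 62.8 and 48.4 TPM (KO). *Reln* was also higher in KO, while *Lrat*, *Col1a1*, *Des* and *Pdgfrb* overlapped between genotypes. The part of cell makeup in the differences of the members was not tested.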

How the data were processed

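RNA-seq was carried out on liver RNA of 2 WT and 2 *Usp21* KO libraries, grouped by their labels. The authors quantified transcripts with salmon against mm10 and deposited gene TPM for 35739 genes. A deposited log2 table holds log2(TPM + 1) of the same values. The authors also counted reads with HTSeq and deposited TMM-normalized CPM for 55335 genes, a count-based signal whose values were whole multiples of 1 read in 100% of cases (tolerance 0.02 reads). This gave 148164 and 110427 recovered reads in the WT libraries and 145306 and 102898 in the KO libraries. Versions, annotation and strand setting are not given in the sources used here. The study compared the groups by ANOVA in Partek.

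The 4 members and the gene lists were chosen with earlier results of these data known, so the members carry no test, and the TPM were made the main values with both tables known. The 9581 genes whose mean TPM was 1 or more were tested on log2(TPM + 1), pseudocount 1, with limma 3.58.1 in R 4.3.3 (eBayes with trend, 3.62 prior degrees of freedom, two-sided, Benjamini-Hochberg). A permutation of 2 against 2 libraries cannot give p below 0.333. Values of lower genes come from a fit of the unfiltered table. No batch or pairing was given. The genes named are the members, the 5 nearest profiles of each, in each list the genes with an unadjusted p under 0.05 or else the 2 smallest p, *Usp21*, and genes that overlap a member. Of these, 1 gene is not reported here. *Arntl* and *G6pc* are listed in the TPM table as *Bmal1* and *G6pc1* and were matched by identifier. Coordinates and transcripts come from the GENCODE annotation of GRCm38. The alternatives were other pseudocounts (0.1 and 5), filters and scaling, variances without moderation, the CPM, edgeR 4.0.16 and DESeq2 1.42.0 on recovered reads, and each library left out. The scripts were tested on simulated data. A first simulation, in which edgeR recovered no changed gene, was replaced by one with changes balanced in direction and higher read counts, and why the first failed was not worked out.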

Additional observations from a re-analysis of the deposited data

How the results depend on the processing

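*Dbp*, *Tef* and *Hlf* were lower and *Nfil3* higher in KO under every alternative computed on the TPM. The groups of each gene did not overlap, so neither a library left out nor another pseudocount could turn these directions. Filters and moderation leave the fold change as it is, so only the scaling could have turned it. The log2 fold change ranged from -3.31 to -2.85 for *Dbp*, from -1.22 to -0.91 for *Tef*, from -0.66 to -0.59 for *Hlf* and from 1.23 to 2.14 for *Nfil3* with each library left out, and that of the summed activators over *Nfil3* from -4.59 to -3.30. A pseudocount of 5 gave -2.44 for *Dbp*, -0.82 for *Tef*, -0.39 for *Hlf* and -3.06 for the ratio, since a larger pseudocount shrinks folds. *Hlf* was -0.72 at a pseudocount of 0.1 and -0.74 under upper quartile scaling, which moved the median of all genes from 0.15 to 0.0344. In the CPM table *Dbp* reversed to 1.52 (1.54 in edgeR, 1.59 in DESeq2) and *Sphk2* to -3.20 (-3.24 in edgeR, -3.27 in DESeq2). The part of the few reads and of strand was not tested. *Tef*, *Hlf* and *Nfil3* are at 0 there and gave no value, and nor did the ratio, whose divisor is *Nfil3*. The medians that turned were those of the ROR element regulators (-0.0171 with upper quartile scaling, -0.236 to 0.101 with a library left out, the lowest without WT replicate 3), the clock genes with D-boxes (-0.163 without a filter, -0.24 to 0.419 with a library left out, the lowest again without WT replicate 3) and the C/EBP family (-0.0271 with upper quartile scaling).

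Over all tested genes, 8 had an adjusted p under 0.05, against 12 in edgeR, 1 in DESeq2, 1 in the CPM table, 4 without a filter, 0 without moderation and 0 to 7 with each library left out (0 without KO replicate 1). At the unadjusted threshold 1005 genes passed, against 168 in edgeR, 21 in DESeq2, 213 in the CPM table, 639 above the stricter filter of 5 TPM, and 561 (without WT replicate 2) to 1191 (without KO replicate 3). Of the listed genes 10 reached it, against 1 in edgeR, 0 in DESeq2, 1 in the CPM table, 5 above the stricter filter and 8 to 10 with a library left out. The CPM table and the stricter filter hold fewer listed genes, and some of those in the CPM table have almost no reads. No paired analysis was made because the labels give no pairing of WT with KO libraries. With 2 libraries per genotype and no depth for the TPM, low genes such as *Arntl*, *Ciart* and *Per3* are the least certain.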
